A study of Coturnix japonica with 54 samples.

Results

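The proteasome subunit genes were followed in the pituitary gland of male Japanese quail (Coturnix japonica), a long-day breeding bird, across a simulated year of day length. All genes of the count table whose symbol is PSM followed by a letter from A to G and a number were taken, which gave 40 of 16448 genes. Of these, 38 encode subunits, regulators or assembly chaperones of the proteasome. The other 2 match by name only. PSMC3IP encodes a cofactor of meiotic recombination, and PSME3IP1 encodes a protein that binds the activator PSME3. Membership was set by symbol and not by a measured value, though the members were chosen with earlier results of these data known.

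The study held 54 males, with 6 birds at each of 9 photoperiods and 1 pituitary library per bird. Day length started at 16 h of light and 8 h of dark (16La), was shortened to 14 h (14La), 12 h (12La) and 10 h (10La), reached 8 h (8L), and was lengthened again to 10 h (10Lv), 12 h (12Lv), 14 h (14Lv) and 16 h (16Lv). The letter a marks the autumn-like decline and v the spring-like increase, each step lasted 2 weeks, and no group received a drug or carried an engineered allele. Birds were chosen for collection with body mass as a guide, and the labels do not state their age or strain. Because steps followed each other in time, a step in day length cannot be told apart from the time spent in the experiment. The 16Lv and 16La birds had the same day length and differ in that time and in the day lengths that came before.

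The proteasome is the main protease of the cytosol and nucleus. Its 20S core is a barrel of α rings, which gate the entrance, around β rings, which carry the proteolytic sites. The 19S particle caps the core, recognises ubiquitin-tagged proteins, unfolds them with a ring of ATPases and feeds them in. In secretory tissues such as the pituitary it also degrades misfolded hormone precursors that are sent back from the endoplasmic reticulum. Roles given below are known from mammals and yeast, not from quail.

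Polyadenylated RNA was read as full-length cDNA on Oxford Nanopore flow cells. Depth was low. Library totals, counted by the largest transcript of each gene, ranged from 2812 to 77709 with a median of 20420. The 40 genes together had 2959 of these counts, or 0.232% of all counts in the 54 libraries. The median count of a member in a bird was 1, and 42.1% of the values of a member in a bird were 0. Between 0 and 39 of the 40 members were detected in a bird, with a median of 26. Levels below are counts per 1000000 (CPM), relative to that library total. They are not divided by transcript length, and are used to compare birds and photoperiods, not genes. In whole glands, fewer cells of a type and less RNA per cell cannot be told apart. The tissue label was checked on hormone cell markers (POMC, PRL, CGA and others). Of 12 listed symbols 9 were in the table and all 9 were above 0, with a median sum of 71671 CPM over the birds. None of 9 red blood cell symbols was in the table, so blood content was not analysed here.

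Relative to the library total, the mean share of the proteasome genes lay between 1907 and 2391 CPM over the photoperiods. Some other scalings put every spring mean below every autumn mean, as given in the closing section. The shortest day, 8L, had the highest mean, 2391 ± 710 CPM (SD, n = 6), followed by the start of the cycle, 16La, with 2344 ± 588. Next in order came 14La with 2263 ± 738, 12Lv with 2237 ± 700 and the end of the cycle, 16Lv, with 2207 ± 625 CPM. The lower means belonged to 12La with 2120 ± 598, 10La with 2031 ± 852, 10Lv with 1978 ± 1003 and 14Lv with 1907 ± 966 CPM. The highest mean was 1.25 times the lowest, and every difference between means was smaller than the SD within any photoperiod. That SD describes single birds and not the error of a mean, so it does not show that the means were alike. When the counts of the 6 birds were pooled before the share was taken, photoperiods ranged from 2060 CPM at 14La to 2443 CPM at 8L, a ratio of 1.19. No neighbours in the order differed beyond their spread, and no photoperiod was separated from another. No p-value is given for this sum.

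**Figure D1:**
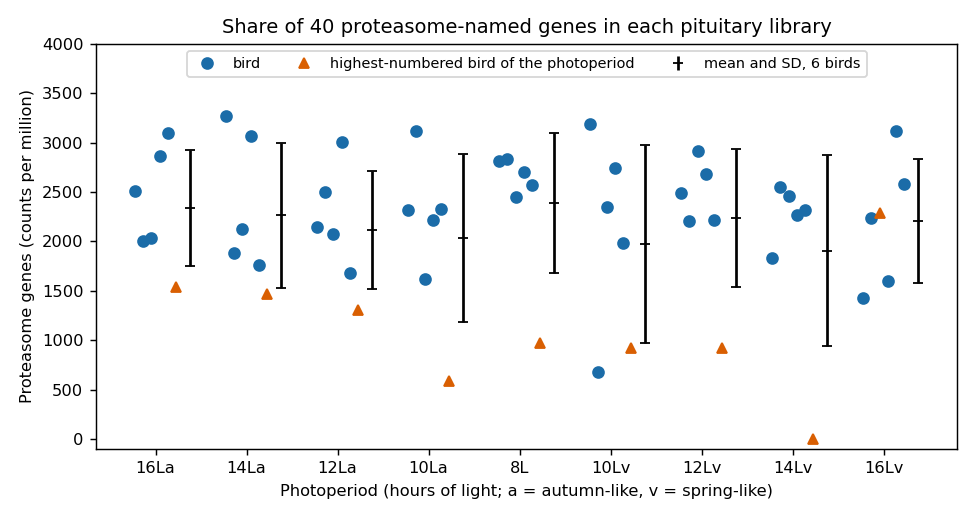
Summed level of the 40 proteasome-named genes (CPM, vertical axis) in each of 54 birds at the 9 photoperiods in the order of the experiment. Circles are birds, triangles are the bird with the highest number in each photoperiod, and bars are the mean and SD of 6 birds. All photoperiods overlap, and the triangle is the lowest point in 7 of 9 photoperiods.

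Single birds ranged from 0 to 3275 CPM, and such a range is always at least as wide as that of means over 6 birds. The lowest, median and highest values were 974, 2633 and 2839 CPM at 8L, against 1543, 2274 and 3101 CPM at 16La and 1422, 2262 and 3116 CPM at 16Lv. Exact Poisson 95% intervals, which cover counting error only, held the pooled share of 2317 CPM in 37 of 54 birds, lay below it in 11 and above it in 6. The low birds were mostly of one kind. The bird with the highest number in its photoperiod had the lowest proteasome share in 7 of 9 photoperiods. These 9 birds ranged from 0 to 2286 CPM with a median of 974, against 676 to 3275 CPM with a median of 2351 in the other 45. The extreme was 14Lv replicate 6, where none of 4251 counts fell on a proteasome gene.

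The same 9 libraries stood apart in other measures. Of them, 7 had fewer than 2000 genes detected, where the range over all libraries was 544 to 9753. ACOT9, an acyl-CoA thioesterase with a very high count in this data set, took 10.9% to 27.4% of their counts (median 14.8%), against 3.23% to 15.2% (median 7.53%) in the other birds. Their hormone cell marker sum, over 9 of 12 symbols, was 7007 to 80520 CPM with a median of 27758, against 32295 to 152205 CPM with a median of 73057. The part of these differences in the proteasome share was not tested. Without the 9 libraries that had fewer than 2000 genes, the photoperiod means ran from 2191 CPM at 10Lv to 2675 CPM at 8L. At 8L the remaining 5 birds lay between 2452 and 2839 CPM with an SD of 165. That SD was less than the gap between the 10Lv and 8L means, which were picked as the extremes. At 10Lv the remaining 5 birds lay between 676 and 3194 CPM with an SD of 959, more than that gap. The 10Lv range held every remaining 8L bird, so 8L was not separated from 10Lv.

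**Figure D2:**
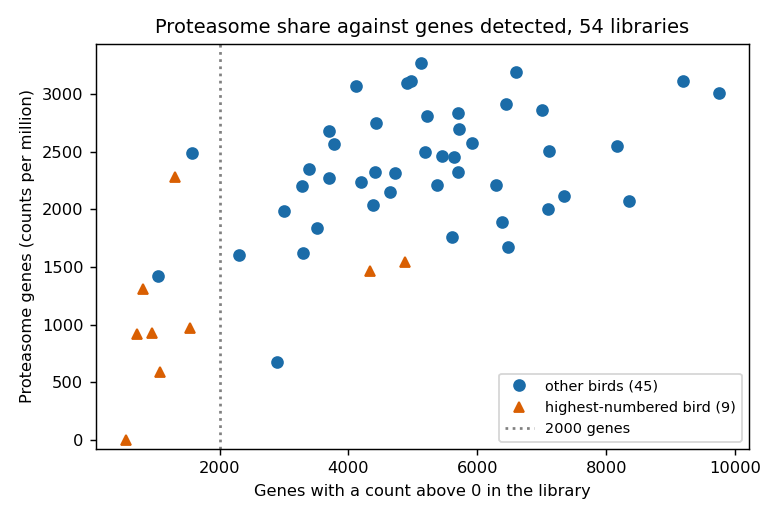
Summed level of the 40 proteasome-named genes (CPM, vertical axis) against the number of genes with a count above 0 (horizontal axis) in each of 54 libraries. Triangles are the highest-numbered bird of each photoperiod and the dotted line marks 2000 genes and 7 of 9 triangles lie left of it, between 0 and 2286 CPM.

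By role, the core contributed most of the counts. The 7 α-ring genes held 766 counts (25.9% of the counts of all 40 genes) and the 6 β-ring genes 752 (25.4%). The 5 ATPases of the 19S particle held 343 (11.6%) and its 10 other subunits 559 (18.9%). The 7 assembly chaperones held 338 (11.4%), the 3 activators and inhibitors 138 (4.66%) and the 2 name matches 63 (2.13%). These are shares of reads, not of protein, and the counts are not scaled by length. PSMB6, PSMC4 and PSMD8 were not in the count table, so the core and 19S counts leave them out. The 19S subunits SEM1 and ADRM1 were in it, with 129 and 49 counts, but carry no PSM symbol. They are left out of the 19S counts and of the ratios below, and stand on the wider ubiquitin list.

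The ratio of core to cap counts ran from 1.46 to 2.173 over the photoperiods. Over all birds there were 1518 core and 902 19S counts, a ratio of 1.68. In the autumn arm 16La had a ratio of 1.46, 14La 1.86, 12La 1.59 and 10La 1.85, and 8L had 1.64. In the spring arm 10Lv had 2.173, 12Lv 1.87, 14Lv 1.54 and 16Lv 1.48. The highest value, that of 10Lv, rested on 113 core and 52 19S counts. There the core made up 68.5% of both, with an exact binomial 95% interval of 60.8% to 75.5% that covers counting error only. This interval overlapped that of the lowest photoperiod, 16La, at 59.4% (54.2% to 64.4%). Such an overlap does not show that the photoperiods were alike, and the difference was not tested.

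The summed level of the ATPases was highest in the 8L birds, 360 ± 143 CPM (SD, n = 6), followed by 333 ± 275 in the 16Lv and 318 ± 254 in the 12Lv birds, and was lowest in the 10La birds, 182 ± 158. The other 19S subunits stood between 265 ± 147 CPM at 10Lv and 485 ± 193 at 16La. The α ring stood between 424 ± 281 CPM at 16Lv and 708 ± 364 at 14La. The β ring stood between 384 ± 230 CPM at 14Lv and 663 ± 244 at 8L, and the assembly chaperones between 199 ± 134 at 12Lv and 294 ± 58 at 16La. In each role the lowest and highest means were less than the sum of their SDs apart. These SDs describe single birds and not the error of a mean, so this does not show that the means were alike. The differences by role were not tested.

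No photoperiod was high for the members as a whole. The photoperiod with the highest mean was 16Lv for 7 members, 8L for 6, 14La and 10Lv for 5 each, 12La and 12Lv for 4 each, and 16La, 10La and 14Lv for 3 each. The lowest mean was most often at 10Lv, with 11 members, and at 12Lv, with 8. The pooled totals were 85298 counts at 10Lv, 109091 at 12Lv and 80744 at 16Lv, the shallowest photoperiod, and the part of depth in these counts was not tested.

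**Figure D3:**
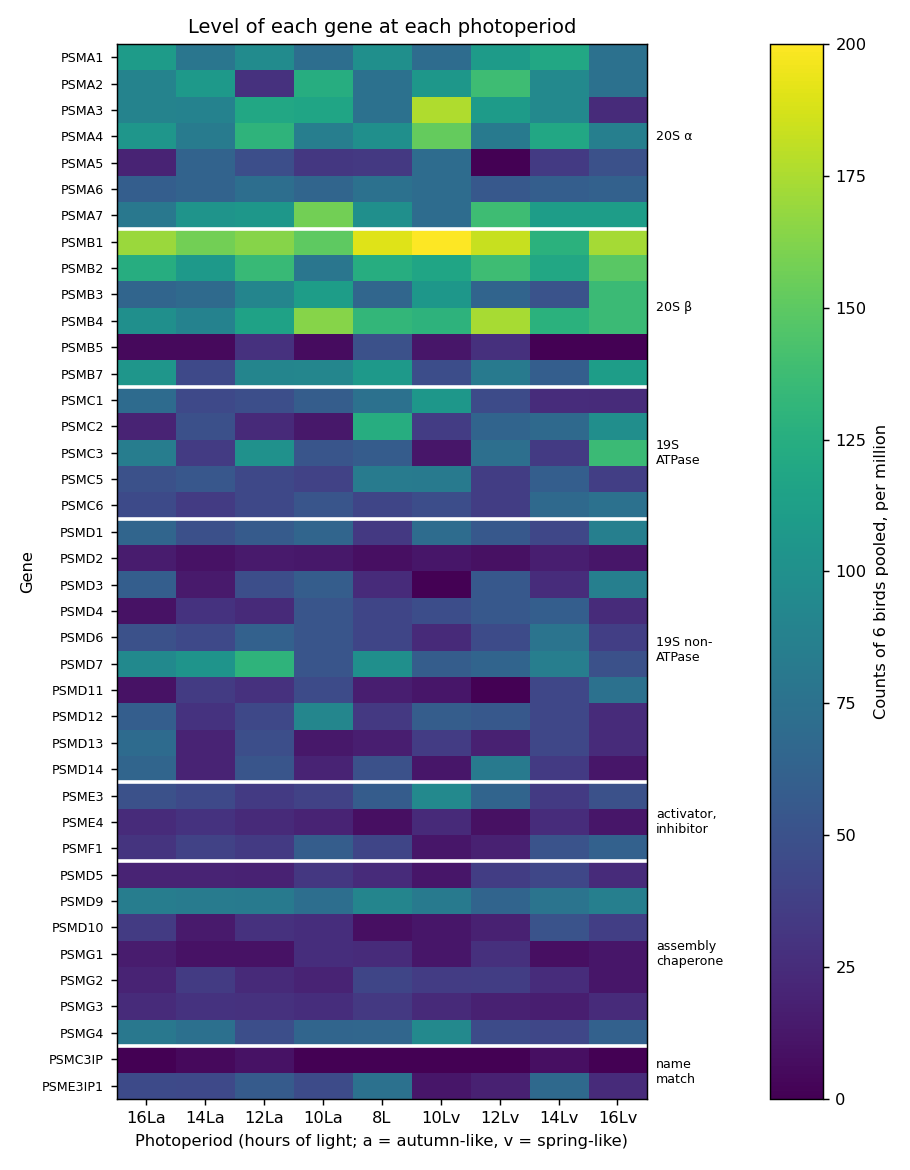
Level of each of the 40 genes (rows, grouped by role) at each photoperiod (columns), in CPM, with the 6 birds of a photoperiod pooled. Colours compare photoperiods within a row; they are not scaled by gene length, and no column is bright for all rows. PSMB1 has 128 to 199 CPM, and PSMC2 stands out at 8L with 124.

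The β ring holds the proteolytic sites in some of its subunits. PSMB1, a non-catalytic subunit, was detected in 49 of 54 birds and was the member with the most counts, 212. Its lowest, median and highest values were 29.7, 156 and 443 CPM at 16La, 60.9, 182 and 322 CPM at 8L, and 0, 177 and 243 CPM at 16Lv. These groups overlapped widely, and the photoperiod means lay between 102.5 CPM at 14Lv and 195 CPM at 10Lv. PSMB4, another non-catalytic subunit, had 159 counts, with means from 88.8 ± 110 CPM at 10Lv to 189 ± 135 CPM at 16Lv (SD, n = 6). PSMB2, also structural, had 153 counts and means from 52.96 ± 60.5 CPM at 10La to 149 ± 74.97 CPM at 12La.

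PSMB6, a catalytic subunit, was not in the count table. Of the catalytic subunits that were, PSMB7, which carries the trypsin-like site, had 105 counts. Its lowest, median and highest values were 55.8, 95.1 and 170 CPM at 16La and 0, 38.1 and 83.1 CPM at 14La, so the ranges overlapped. PSMB5, which carries the chymotrypsin-like site, had only 19 counts in 13 birds. It was at 0 in all birds of 14Lv and of 16Lv, where 3 counts over the group would have been 25.6 and 37.2 CPM. Its highest mean was 42.3 ± 46.4 CPM at 8L (SD, n = 6), from 6 counts, so a difference was not detectable at this depth.

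Among the α-ring genes, which form the gate of the core, PSMA7, PSMA4, PSMA3, PSMA1 and PSMA2 had 138, 133, 128, 119 and 115 counts. PSMA7 means ran from 62.8 ± 60.8 CPM at 10Lv to 136 ± 51.9 CPM at 10La, and PSMA4 means from 72.5 ± 58.8 CPM at 10La to 134 ± 68.9 CPM at 12La. PSMA1 means ran from 61.8 ± 60.2 CPM at 10Lv to 157 ± 146 CPM at 12Lv (SD, n = 6 each). For these 3 genes the extreme photoperiods overlapped. PSMA6 had 83 counts and means from 40.3 to 77.7 CPM. PSMA5 had 50 counts and was at 0 in all 12Lv birds, where 3 counts would have been 27.5 CPM.

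In the 19S particle, PSMD7, a scaffold of the lid, had 113 counts with means from 33.5 CPM at 10Lv to 123 CPM at 12La. PSMD14, the deubiquitinase that removes ubiquitin chains before entry, had 52 counts, and PSMD4, a ubiquitin receptor, had 45. PSMD1 and PSMD2, the large scaffold subunits of the base, had 73 and 16. PSMD3 was at 0 at 10Lv and PSMD11 at 12Lv, under floors of 35.2 and 27.5 CPM. Outside the particle, the chaperones PSMD9 and PSMG4 had 103 and 82 counts. The activators PSME3 and PSME4 had 62 and 27, and the inhibitor PSMF1 had 49.

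Differences between photoperiods were tested with edgeR's quasi-likelihood test on all 54 birds, with Benjamini-Hochberg adjustment over the 1460 genes that passed the filter on low counts and a threshold of 0.05. Of the 40 members, 14 passed that filter, 26 did not. Those tested were PSMA1, PSMA2, PSMA3, PSMA4, PSMA7, PSMB1, PSMB2, PSMB3, PSMB4, PSMB7, PSMC2, PSMC3, PSMD7 and PSMD9. A gene passed where any 6 birds reached about 147 CPM. For the tested members no photoperiod supplied more than 4 of these birds, and 10 of the 14 would have passed without their fullest photoperiod. PSMC2 had just 6 such birds, with at most 2 in a photoperiod. The tested member with the fewest counts, PSMC2, had 62, and the untested one with the most, PSMA6, had 83.

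No proteasome gene passed the threshold in any of 18 comparisons. For any difference among the 9 photoperiods, 0 of 14 members were called by edgeR, beside 1.23% of all genes tested. For the slope on hours of light, 0 of 14 were called, beside 0.616% of all genes. For the shortest day against the start (8L minus 16La) 0 were called, beside 0.479%, for 16Lv minus 8L 0, beside 0.205%, and for 16Lv minus 16La 0, beside 0.0685%. With so few calls among all genes, a count of 0 among 14 is near the background. DESeq2 and limma also called 0 members in every comparison, where over all 18 comparisons together DESeq2 called 0.148% of all gene tests. On the deposited signal limma called 0.179% with a pseudocount of 1 and 0.137% with a pseudocount of 0.1, so these counts of 0 are near the background too. Without adjustment, 13 of 252 tests on members (5.16%) had p under 0.05, against 4.39% of all tests on all genes.

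The median member lay close to the median gene. The median log2 fold change of the 14 members was -0.10 for 8L minus 16La, beside -0.09 for all genes. It was -0.13 for 16Lv minus 8L, beside -0.16, and -0.19 for 16Lv minus 16La, beside -0.25. The median slope was 0.01 log2 units per hour of light, beside 0.00. For the 4 spring photoperiods minus the 4 autumn photoperiods 0 members were called by edgeR, beside 0% of all genes, and 4 members were higher and 10 lower, with a median of -0.17, beside -0.16 for all genes.

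When the filter was relaxed to a minimum count of 1, 38 of 40 members and 7263 genes were tested, and again 0 members were called by edgeR in any comparison. With this filter edgeR called 0.757% of all genes for any difference, 0.193% for the slope on light hours, 0.0138% for the change of slope and 0.330% for the spring against the autumn arm. For the end points it called 0.0826% (8L minus 16La), 0.0275% (16Lv minus 8L) and 0.0275% (16Lv minus 16La). For matched day lengths it called 0.0688% with 14 h, 0.110% with 12 h and 0% with 10 h of light. Among the steps it called 0.179% for 12La minus 14La and 0.0413% each for 10La minus 12La, 12Lv minus 10Lv and 14Lv minus 12Lv, and 0% for the other 4. In the comparison of the arms 2 members were higher and 36 lower, with a median log2 fold change of -0.46, beside -0.37 for all genes. The median gene was thus lower too. The share of all genes that were lower was not counted, so the 36 is not read as a trait of the members. The 24 spring libraries had a median total of 11783 counts and the 24 autumn ones 30676, and the part of depth in this shift was not tested. The smallest edgeR adjusted p among the members in the comparison of the arms was 0.222, for PSME3IP1, which is one of the 2 name matches.

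**Figure D4:**
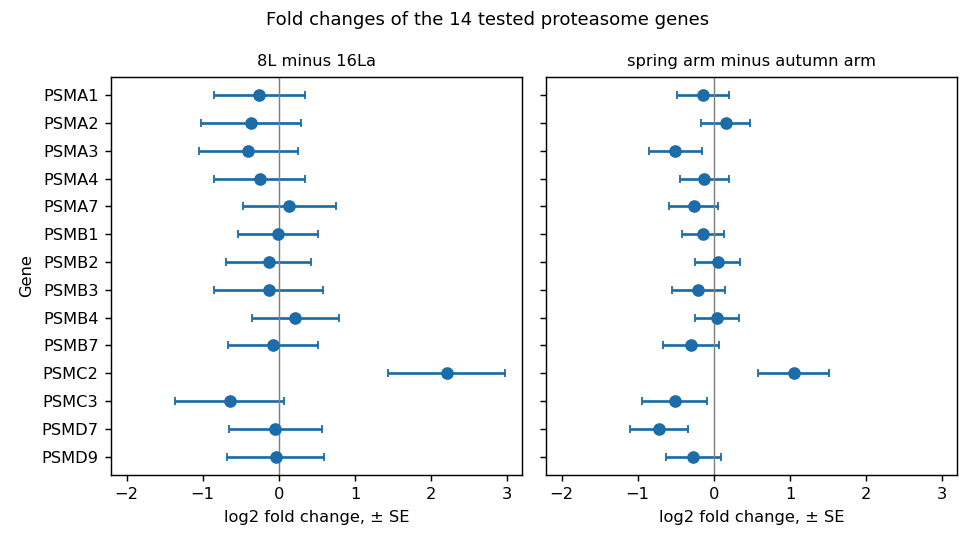
Log2 fold change with its standard error (horizontal axis, edgeR) of the 14 tested proteasome genes (rows) for 8L minus 16La on the left and for the 4 spring photoperiods minus the 4 autumn photoperiods on the right. Most genes lie near the zero line; PSMC2 lies to the right in both, at 2.20 and 1.05, and neither value passed the threshold.

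The member with the smallest p-values was PSMC2, one of the ATPases that unfold substrates in the 19S base. At 8L it was detected in 6 of 6 birds, with 86.1, 125 and 161 CPM as the lowest, median and highest values. The 16La birds had 0, 24.95 and 56.6 CPM, the 10La birds 0, 0 and 45.5 CPM, and the 10Lv birds 0, 0 and 75.2 CPM. The highest 14La bird had 85.1 CPM and the highest 12La bird 44.2 CPM. All 8L birds were therefore above all birds of the 4 autumn photoperiods and of 10Lv, by a narrow margin at 14La. The separation from 10Lv and 12La turned on single counts in shallow libraries. In 10Lv replicates 2, 3, 5 and 6 and in 12La replicate 6, all at 0, 1 count would have been 90.2 to 153 CPM. That is above the lowest 8L bird. Such a separation was shared by 0.205% of the tested genes upward for 8L minus 16La. It was shared by 0.0685%, PSMC2 alone, upward for 8L minus 10La, and by 0.0685% downward for 10Lv minus 8L. For 8L minus 14La and 8L minus 12La it was also 0.0685%, but these were examined after the values of PSMC2 were seen. PSMC2 reached the 6 birds of the filter with 8L replicate 4, at 161 CPM, among them. These shares therefore describe PSMC2 and do not test it. From 12Lv on, PSMC2 overlapped 8L, with 80.3 ± 69.7 CPM there, 78.04 ± 79.2 in the 14Lv birds and 99.6 ± 84.3 in the 16Lv birds (mean and SD, n = 6).

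These PSMC2 values rest on few counts. The 8L birds had 15 counts together, against 4 at 16La, 2 at 10La and 3 at 10Lv. The ratio of pooled levels was 6.22 for 8L over 16La, with a 95% counting interval of 1.98 to 25.8. It was 9.48 (2.20 to 85.4) for 8L over 10La, and 3.53 (0.999 to 19.04) for 8L over 10Lv. The edgeR log2 fold change was 2.20 ± 0.77 (SE) for 8L minus 16La, with an adjusted p of 0.542 (0.00454 before adjustment). It was 2.78 ± 0.88 for 8L minus 10La, with an adjusted p of 0.997 where 0% of all genes were called, and -1.78 ± 0.87 for 10Lv minus 8L, with an adjusted p of 1.000. For any difference among photoperiods the edgeR p was 0.0180 and the adjusted p 0.515. An exact two-sided permutation test of the 924 splits of 8L and 16La birds gave 0.00216, the smallest p it can give, and 0.395 after adjustment over all genes. Leaving out single birds, the adjusted p for 8L minus 16La lay between 0.357 and 0.916. The difference failed the correction in each of these tests. PSMC2 was picked for its small p-values and reached the filter with an 8L bird among its 6. These p-values therefore describe PSMC2 and lend no support to a difference.

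**Figure D5:**
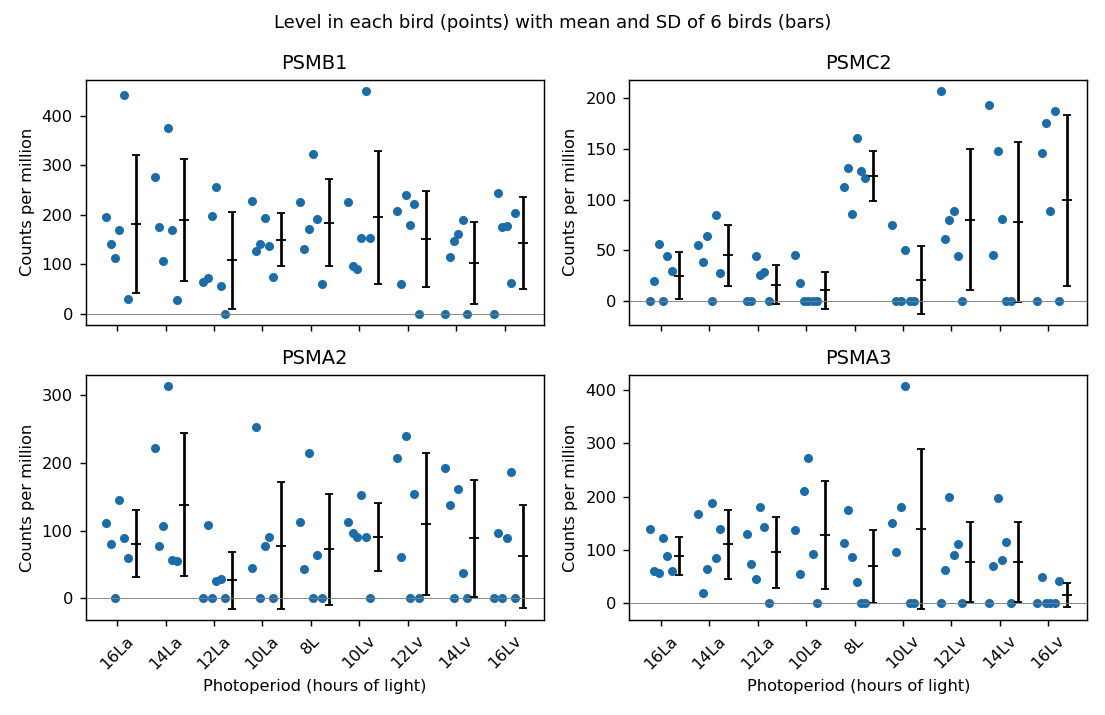
Level (CPM, vertical axis) of PSMB1, PSMC2, PSMA2 and PSMA3 in each bird (points) at the 9 photoperiods, with the mean and SD of 6 birds (bars). For PSMC2 the 6 birds at 8L lie between 86.1 and 161 CPM, above every bird of 16La, 14La, 12La, 10La and 10Lv; for PSMB1 all photoperiods overlap.

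PSMA2, an α-ring subunit, was low at 12La. Its lowest, median and highest values there were 0, 12.9 and 109 CPM, with 3 of 6 birds at 0, against 55.4, 92.5 and 313 CPM at 14La, and 0, 108 and 240 CPM at 12Lv. The 12La and 14La groups overlapped through 1 bird, 12La replicate 2, which held the value of 109 CPM. The 12Lv range, from 0 to 240 CPM, held all 12La values. The edgeR log2 fold change of 12La minus 14La was -1.97 ± 0.68 (SE) with an adjusted p of 0.295, beside 0.479% of all genes called. That was the smallest adjusted p of any member in these comparisons. Without 12La replicate 2 the fold change was -2.64 ± 0.77 with an edgeR adjusted p of 0.0656. That bird was the highest of 12La, so leaving it out had to widen the difference and lends no support. Fits without 1 bird also tested more genes, 1637 to 1713. For 12Lv minus 12La the log2 fold change was 1.86 ± 0.72 with an adjusted p of 0.737, where 0.548% of all genes were called by edgeR. For 10La minus 12La it was 1.68 ± 0.69 with an adjusted p of 0.999, where edgeR called 0%.

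PSMA3, another α-ring subunit, was at 0 in 4 of 6 birds at 16Lv, with 0, 0 and 48.7 CPM as the lowest, median and highest values. At 16La they were 56.6, 74.6 and 140 CPM, so all 16Lv birds were below all 16La birds, as in 0.342% of the tested genes. That separation turned on single counts, since the lowest 16La bird and the highest 16Lv bird each had 1. In 16Lv replicates 1 and 3, both at 0, the totals were 2812 and 5688. There 1 count would have been 356 and 176 CPM, above every 16La bird. The groups held 18 counts at 16La and 2 at 16Lv, and the ratio of pooled levels, 3.63, had a counting interval of 0.868 to 32.2. The edgeR log2 fold change was -1.88 ± 0.90 (SE) with an adjusted p of 0.841. PSMA3 also had the smallest p among the members for 16Lv minus 8L, with -1.48 ± 0.98 and an adjusted p of 1.000. PSMC2 moved the other way between 16La and 16Lv, by 1.804 ± 0.87 with the same edgeR adjusted p of 0.841.

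PSMC3, an ATPase of the same ring as PSMC2, had the steepest slope of the members, 0.14 ± 0.08 log2 units per hour of light with an edgeR adjusted p of 0.818. Its level was 0, 0 and 37.6 CPM (lowest, median and highest) at 10Lv, from 1 count, and 0, 82.0 and 415 CPM at 12Lv, from 8 counts. The edgeR log2 fold change between them was 2.30 ± 1.15, with an adjusted p of 0.999, beside 0.205% of all genes called. The pooled ratio of 6.26 had a counting interval of 0.839 to 278. Without 12Lv replicate 1, the bird with 415 CPM, the fold change was 1.98 ± 1.18 with an edgeR adjusted p of 0.993. For 16Lv minus 14Lv the log2 fold change was 1.76 ± 0.86 with an adjusted p of 0.999 by edgeR, where 0% of all genes were called. With the 6 birds pooled, PSMC3 was highest at 16Lv, 136 CPM, against 73.3 CPM at 12Lv, where the mean rests on the 1 bird with 415 CPM.

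In the other steps and matched day lengths no member had an unadjusted p under 0.05, beside 4.25% of all genes for 14Lv minus 14La, 2.53% for 10Lv minus 10La, 2.60% for 14La minus 16La and 3.36% for 14Lv minus 12Lv. For 14Lv minus 14La the smallest p was that of PSMB1, -0.68 ± 0.55 (log2, SE), with an edgeR adjusted p of 0.987, where 0.137% of all genes were called. For 14La minus 16La it was that of PSMB7, -1.01 ± 0.63, with an edgeR adjusted p of 1.000, where 0% were called. For 10Lv minus 10La and for 14Lv minus 12Lv it was that of PSMC3, at -1.97 ± 1.15 and -1.07 ± 0.91, with 0% of all genes called by edgeR in both. The change of slope between the arms was largest in PSMA3, at -0.22 ± 0.10 per hour with an edgeR adjusted p of 0.902, and 0% of all genes were called.

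No gene of the wider ubiquitin system passed the threshold either. A list of 72 genes held ubiquitin precursors, conjugating enzymes, ligase parts, shuttles, deubiquitinases and regulators of proteasome synthesis. Of these, 62 were in the table and 23 passed the filter, and 0 of 23 were called by edgeR in any of the 18 comparisons, or by DESeq2 or limma. The edgeR share of all genes called was at most 1.23% in a comparison, so 0 of 23 is near the background. Their median log2 fold change was -0.01 for 8L minus 16La, with 11 higher and 12 lower, beside -0.09 for all genes. For the spring minus the autumn arm it was -0.26, with 6 higher and 17 lower, beside -0.16 for all genes. How many of all genes were lower was not counted.

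UBB, a polyubiquitin gene, had means from 559 ± 292 CPM at 12La to 806 ± 472 CPM at 14Lv (SD, n = 6 each). RPS27A, which encodes ubiquitin fused to a ribosomal protein, ran from 1865 ± 667 CPM at 16La to 3121 ± 2411 CPM at 10Lv. For both genes these photoperiods overlapped. Since ubiquitin repeats are nearly identical between genes, reads of UBB may have been split in the counting.

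The smallest adjusted p on the list was that of NFE2L2, a transcription factor of the oxidative stress response. Its log2 fold change for the spring minus the autumn arm was -1.06 ± 0.40 (SE) with an edgeR adjusted p of 0.411. Its level was 0, 87.02 and 178 CPM (lowest, median and highest) at 16La and 0, 0 and 40.96 CPM at 16Lv, where 5 of 6 birds were at 0. These groups overlapped, the edgeR adjusted p was 0.706, and the ratio of pooled levels, 7.66 from 19 counts against 1, had a counting interval of 1.22 to 318.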

How the data were processed

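The authors deposited a table of estimated counts per transcript and a table of normalised signal per gene (headed CPM), both per the file headers. The submitters' processing notes name minimap2 2.17 with Salmon 0.14.2 and with edgeR 3.24.3, with roles and build not given in the sources used here, so no coordinates are printed. The deposited signal columns do not sum to one common total and served only as an alternative. One read can count for more than one transcript, so the largest transcript count per gene and bird was taken and rounded. All 55 transcript rows of the members matched their symbol in a RefSeq gene list for the Coturnix japonica 2.1 assembly; 30 members have 1 row and 10 have more.

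Groups came from the treatment label. Labels number the birds separately. Beyond the cDNA and flow cells given above, the labels used here do not say how libraries were prepared. The test was edgeR 4.0.16 under R 4.3.3 (quasi-likelihood F-test, robust, TMM scaling, filterByExpr minimum count 3). Each photoperiod had 1 mean, with 45 residual degrees of freedom and no covariate. A standard error was taken as fold change over root F. The comparisons made were any difference, slopes on light hours, the arms, the end points, matched day lengths and successive steps. Intervals and floors (3 counts) cover counting error only. The test was checked on simulated data. Alternatives were RLE scaling, minimum counts of 10 and 1, no filter, DESeq2 1.42.0, summed counts, limma 3.58.1 on log2 of the deposited signal plus 1 or 0.1, the log2 total as covariate, leaving out shallow libraries or single birds, 2-group fits and exact permutation; added after seeing the data were leaving out the highest-numbered birds, the same leaving-out of shallow libraries at a minimum of 1, the share without the name matches and pooled birds. The members, lists and tests were chosen with earlier results of these data known. Values were described for the 8 members with the highest mean CPM, for those called, and for the smallest p of each comparison; remaining members named were chosen for their role after their values were seen. Some values of the wider ubiquitin list are not reported here.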

Additional observations from a re-analysis of the deposited data

Results flagged for a closer look

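The values of the 11 genes described bird by bird, and of the summed proteasome share, were examined in 108 groups of 6 birds for a bird whose gap to the nearest of the others exceeded 0.625 of the group's range (Dixon's 95% critical value for 6), and 12 were found. Chance nominally gives about 1 in 20 groups, a rate that need not hold where most birds have 0 or 1 count, as for PSMC3 at 10Lv. In the summed share these were low birds, at 974 CPM in 8L replicate 6, 922 CPM in 12Lv replicate 6 and 0 CPM in 14Lv replicate 6. All 3 are the highest-numbered bird of their photoperiod, and each had fewer than 2000 genes detected.

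In single genes the distant birds were high ones. In the β ring they were 451 CPM for PSMB1 in 10Lv replicate 5, 536 CPM for PSMB2 in 12Lv replicate 4 and 153 CPM for PSMB7 in 10Lv replicate 4. In the α ring they were 291 CPM for PSMA1 in 12La replicate 6, 109 CPM for PSMA2 in 12La replicate 2 and 254 CPM for PSMA2 in 10La replicate 2. For the ATPase PSMC3 they were 219 CPM in 12La replicate 4, 37.6 CPM in 10Lv replicate 1, which is 1 count, and 415 CPM in 12Lv replicate 1. PSMC3 thus had a distant bird in 3 of its 9 photoperiods.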

How the results depend on the processing

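No proteasome gene passed the threshold under any alternative that tested one. The smallest adjusted p was 0.0729, for PSMA7 in the spring against the autumn arm with limma on the deposited signal plus 1, and 0.0656 when single birds were left out, over 54 fits. A minimum count of 10 left no member to test. For the member with the smallest p in each comparison, 183 fold changes under alternatives all kept their direction. Fits without single birds were not in this count. Since these members were picked as extreme from mostly the same birds, a kept direction was nearly assured and lends no support.

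With summed counts and with the deposited signal, most photoperiod means of the summed share moved by more than 1 SD in level. The exceptions were 10Lv and 14Lv with summed counts, and 10La, 10Lv and 14Lv with the signal. With the TMM factor no mean moved by as much as 1 SD. With summed counts 16La had 1270 CPM, 14La 1229, 12La 1117, 10La 1129, 8L 1306, 12Lv 1203 and 16Lv 1214. With the deposited signal 16La had 1570, 14La 1495, 12La 1330, 8L 1247, 12Lv 1108 and 16Lv 979, so that the highest, 16La, was 1.66 times the lowest, 14Lv, at 947. With the library total multiplied by the TMM factor, the highest was 14La, at 2587 CPM, which was 1.49 times the lowest, 14Lv, at 1735. That factor was estimated on the genes that passed the filter. With the deposited signal and with the TMM factor, every spring mean lay below every autumn mean. The closest were 10La and 12Lv, at 1216 and 1108 in the signal and 2081 and 2025 CPM with the factor. This order did not hold with the library total or summed counts, and its cause was not tested. Leaving out single birds gave means from 1735 to 2675 CPM. No paired analysis was possible because bird numbers differ between photoperiods and replicate numbers follow the order of deposition. Depth limits these results: 26 of 40 members fell below the filter, and a minimum count of 1 left 2 untested.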
